A study of Mus musculus with 34 samples.

Results

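*Cirbp* and *Rbm3*, which encode cold-inducible RNA-binding proteins, and *Clk1*, *Clk2*, *Clk3* and *Clk4*, which encode the CDC-like kinases, were examined in the mouse dorsal hippocampus after spatial learning. They were taken from the bulk RNA-seq count table by their GENCODE symbols, as 6 of 54532 genes. Each symbol matched 1 row, and all 6 were among the 22018 genes with enough counts to be tested. RNA was sequenced from 8 male C57BL/6J mice of 2 to 3 months. The 4 homecage mice stayed untrained, whereas the 4 others learned a spatial object recognition task (SOR), in which the places of objects in an arena are memorized, and were euthanized 1 h after its last trial. Each library came from 1 mouse. The question addressed by the comparison is which transcripts differ early after learning.

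CIRBP and RBM3 are small, closely related proteins with an RNA recognition motif and a glycine-rich tail. Their transcripts accumulate when cells or brain are mildly cooled and decline on warming, and RBM3 is known from the brain for its part in keeping synapses during cooling. The CDC-like kinases phosphorylate SR proteins, the serine- and arginine-rich splicing factors, and their activity is itself sensitive to small shifts in body temperature. *Clk1* and *Clk4* transcripts are also known to be held back in the nucleus with unspliced introns, which a gene-level count does not separate from the spliced form.

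The promoter of *Cirbp* is shown because cold induction of this gene has been mapped to short elements upstream of its start, and that of *Clk4* because it held the rarest of the motifs searched. The sequences are RefSeq windows on GRCm38.p6, from 250 bases before to 50 bases after a transcription start, which matched 4 of the 6 genes with 5 windows in all. Capitals mark matches on either strand to TCCCCGCC (the mild cold response element), CCAAT (bound by NF-Y), TGACGTCA (the cyclic AMP response element) and GAANNTTC (paired half-sites of the heat shock element). The *Cirbp* window lies on the plus strand at chr10:80167589-80167888 and the *Clk4* window on the plus strand at chr11:51262864-51263163.
Cirbp: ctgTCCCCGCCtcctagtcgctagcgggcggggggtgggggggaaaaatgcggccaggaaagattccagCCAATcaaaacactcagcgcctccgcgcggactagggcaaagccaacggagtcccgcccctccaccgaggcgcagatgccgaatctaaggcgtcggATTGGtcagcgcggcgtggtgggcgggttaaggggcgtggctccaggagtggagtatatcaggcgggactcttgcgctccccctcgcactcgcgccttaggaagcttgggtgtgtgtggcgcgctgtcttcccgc
Clk4: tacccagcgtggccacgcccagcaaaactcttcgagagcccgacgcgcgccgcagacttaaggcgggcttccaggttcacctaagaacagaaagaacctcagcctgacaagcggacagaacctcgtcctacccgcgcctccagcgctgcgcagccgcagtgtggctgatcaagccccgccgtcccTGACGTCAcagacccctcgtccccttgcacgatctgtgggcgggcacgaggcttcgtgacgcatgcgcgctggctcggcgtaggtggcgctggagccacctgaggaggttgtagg
In the *Cirbp* window, TCCCCGCC began at base 4, counted from the 5′ end of the window, and CCAAT matched at base 70 and, on the opposite strand, at base 166. The other *Cirbp* window, which is not shown, held neither motif. Among 32851 promoter windows of the same length, 5.38% held TCCCCGCC and 37.4% held CCAAT. The *Clk4* window had TGACGTCA at base 186, a motif found in 1.79% of windows. GAANNTTC, present in 7.86% of windows, matched none of the 5 windows. The GC box GGGCGG, which 35.7% of windows held and which is not capitalized, matched 3 times in the window shown for *Cirbp*, 4 times in its other window, 2 times in that of *Clk3* and 1 time each in those of *Clk2* and *Clk4*, without overlapping the capitals. These are matches of letters, and no binding was measured.

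The libraries held between 51406011 and 81525977 estimated counts, and the biological coefficient of variation of the fit was 14.1%. Values are CPM, counts per 1000000 of a library size scaled by the upper quartile, and means are given with the SD. Marker genes of cell types and regions were summed. Dentate granule markers ranged from 402 to 475 CPM in homecage mice and from 407 to 458 CPM after training. CA1 markers ranged from 346 to 387 and from 351 to 377 CPM, and CA3 markers from 160 to 181 and from 163 to 180 CPM. Markers of the thalamus ranged from 129 to 182 and from 120 to 162 CPM. No marker of any list was at 0 in all libraries, so detection alone did not tell hippocampus from other tissue. SOR replicate 1 stood apart. It was the lowest of the 8 libraries for 22.2% of the genes tested, against 6.79% to 16.1% for the other libraries. Markers of the choroid plexus, the secretory epithelium of the ventricles, summed to 4000 CPM in this library, to 25.2 to 1090 CPM in homecage mice and to 41.4 to 881 CPM in the other SOR mice, and all 6 of them were highest there. Markers of oligodendrocytes summed to between 5430 and 5920 CPM in homecage mice and between 4440 and 5830 CPM after training, and 0 of 8 had a positive log2 fold change (median -0.19). Markers of red blood cells summed to between 98.6 and 127 CPM and between 115 and 184 CPM, and 5 of 5 had a positive log2 fold change (median 0.37). No gene of these marker lists passed an adjusted p under 0.05 in edgeR. The part of these markers in the values below was not tested. The group comparison of each of the 6 genes is therefore also given without SOR replicate 1, and so are some of the other comparisons. In bulk tissue, fewer cells of a type and less RNA per cell cannot be told apart.

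*Cirbp* was lower in SOR than in homecage mice and *Clk1* was higher, while *Rbm3*, *Clk2*, *Clk3* and *Clk4* overlapped between the groups. None of the 6 genes reached an adjusted p under 0.05 in edgeR's quasi-likelihood test, where 68 of 22018 genes (0.309%) did. At an unadjusted p under 0.05, 2 of the 6 passed, *Cirbp* and *Clk1*, against 10.1% of all genes. The SOR values lay wholly below the homecage values for *Cirbp*, as for 3.96% of all genes, and wholly above them for *Clk1*, as for 2.98%. Without SOR replicate 1 again none of the 6 passed the adjusted threshold, where 0.248% of 22166 genes did. *Cirbp* and *Clk1* were then the 2 with an unadjusted p under 0.05 (9.65% of all genes), and the groups still did not overlap for *Cirbp* (5.76% of all genes lay wholly lower) and *Clk1* (4.71% wholly higher). Other tools also differed in how many genes they called with all mice. DESeq2 called both *Cirbp* and *Clk1*, among 435 genes in all. The likelihood ratio test of edgeR called *Clk1*, among 214 genes, and limma-voom called neither, among 63 genes.

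**Figure D1:**
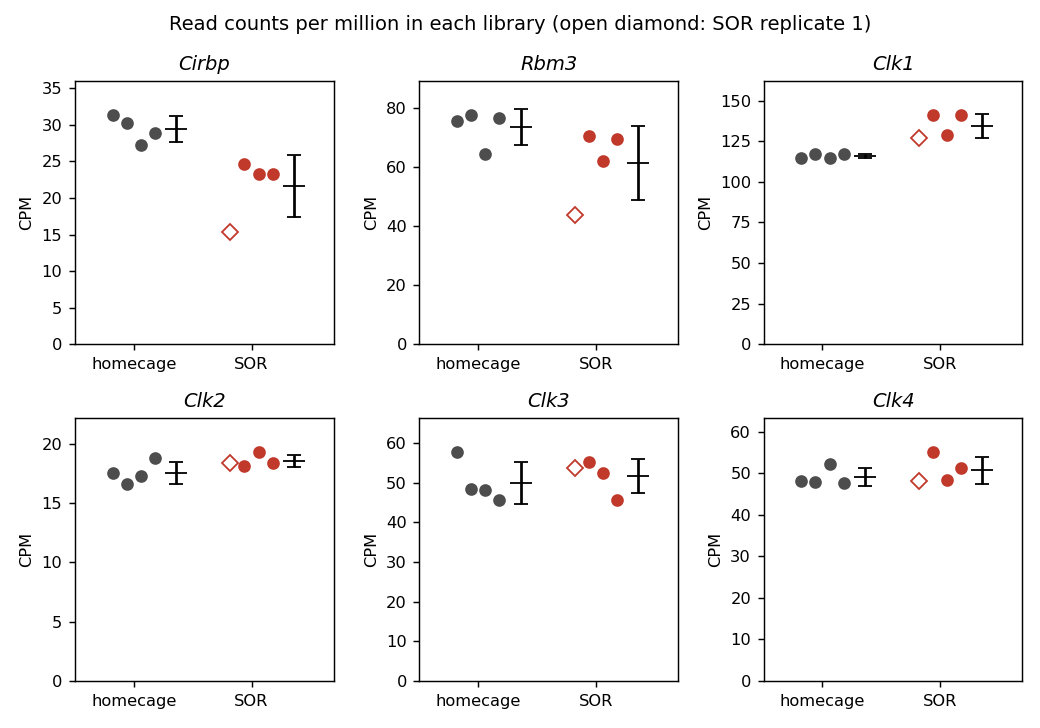
CPM of the 6 genes (y axis) in each homecage and SOR mouse (x axis), with the mean and SD of each group beside the points and SOR replicate 1 as an open diamond. All SOR points of *Cirbp* lie below those of homecage mice (27.2 CPM or more), and all SOR points of *Clk1* lie above them (117 CPM or less).

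*Cirbp* (ENSMUSG00000045193) is annotated on the plus strand of chromosome 10 from 80165985 to 80172786 (GRCm38). It measured 31.3, 30.3, 27.2 and 28.9 CPM in homecage replicates 1 to 4 and 15.4, 24.6, 23.3 and 23.3 CPM in SOR replicates 1 to 4. Every SOR mouse was below every homecage mouse, and SOR replicate 1 was the lowest by a wide margin, at 52.5% of the homecage mean against 80.6% for the mean of the other 3. Group means were 29.4 ± 1.77 and 21.6 ± 4.18 CPM (SD, n = 4 each), a log2 fold change of -0.44 (SE 0.126) with an adjusted p of 0.247. The exact two-sided permutation test gave p = 0.0286, the smallest that 4 mice against 4 allow. Without SOR replicate 1, the SOR mean was 23.7 ± 0.725 CPM (n = 3), the log2 fold change was -0.31 (SE 0.0626) and the adjusted p was 0.118. The difference between means thus went from -26.5% to -19.5%, while the SD within the SOR group went from 4.18 to 0.725 CPM. In that reduced comparison *Cirbp* ranked 113 of 22166 genes by p, against 458 of 22018 with all mice. Its 95% interval in limma-voom ran from -0.77 to -0.20 on the log2 scale with all mice and from -0.46 to -0.17 without SOR replicate 1.

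*Rbm3* (ENSMUSG00000031167) is annotated on the minus strand of chromosome X from 8138975 to 8145880. It measured 75.7, 77.5, 64.4 and 76.6 CPM in homecage replicates 1 to 4 and 43.6, 70.5, 62.0 and 69.4 CPM in SOR replicates 1 to 4. The groups overlapped, because homecage replicate 3 was below SOR replicates 2 and 4, and SOR replicate 1 was again the lowest. The means were 73.6 ± 6.14 and 61.4 ± 12.5 CPM (SD, n = 4 each), and the log2 fold change was -0.26 (SE 0.131, adjusted p = 0.542). Without SOR replicate 1, the SOR mean was 67.3 ± 4.62 CPM (n = 3) and the log2 fold change was -0.13 (SE 0.0724, adjusted p = 0.611). The limma-voom interval ran from -0.60 to -0.00 on the log2 scale with all mice and from -0.30 to 0.03 without it.

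The fold changes with and without that library are shown side by side. Lower values than in homecage mice were seen for both RNA-binding proteins, and higher mean values for all 4 kinases, where 43.8% of all genes tested had a positive log2 fold change and 45.1% without SOR replicate 1.

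**Figure D2:**
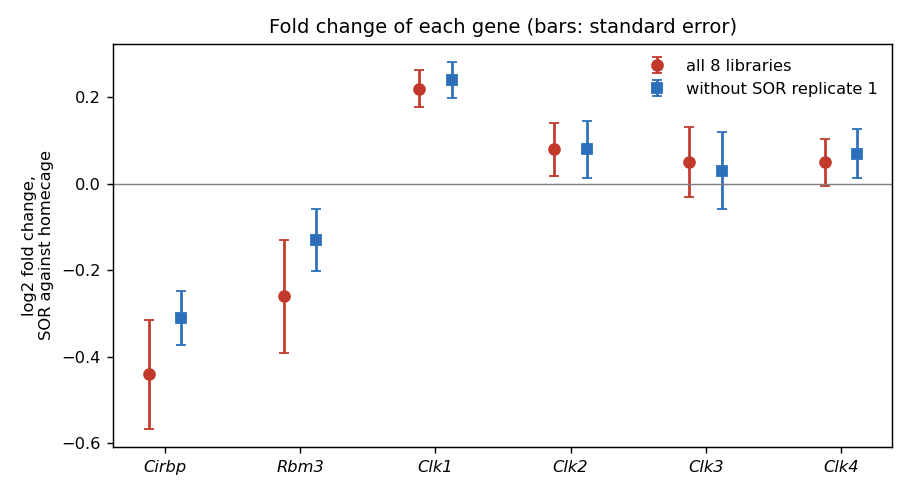
Log2 fold change of SOR against homecage mice (y axis) for each gene (x axis), from all 8 libraries (red circles) and without SOR replicate 1 (blue squares), with bars of 1 standard error. *Cirbp* moves from -0.44 to -0.31 and *Rbm3* from -0.26 to -0.13 without that library, whereas *Clk1* stays near its value (0.22 and 0.24).

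*Clk1* (ENSMUSG00000026034), a kinase with dual specificity that phosphorylates SR proteins in the nucleus, is annotated on the minus strand of chromosome 1 from 58410189 to 58424066. It measured 115, 117, 115 and 117 CPM in homecage replicates 1 to 4 and 127, 141, 129 and 141 CPM in SOR replicates 1 to 4. All SOR mice were above all homecage mice, and the homecage values were the tightest of the 6 genes, with a coefficient of variation of 0.901% against 5.48% in SOR mice. With 6307 to 9458 counts per library, counting error alone is about as large. The homecage value is therefore no measure of the spread between mice. Means were 116 ± 1.04 and 135 ± 7.38 CPM (SD, n = 4 each), a difference of 16.1% and a log2 fold change of 0.22 (SE 0.0429) with an adjusted p of 0.0837. The exact two-sided permutation test gave p = 0.0286. SOR replicate 1 was the lowest of the SOR mice for this gene, and leaving it out gave a log2 fold change of 0.24 (SE 0.0412, adjusted p = 0.0628). *Clk1* ranked 116 of 22018 genes by p with all mice. Its adjusted p depended on the scaling, since it was 0.0447 with TMM and 0.0418 with RLE factors.

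The other kinases had smaller differences, none of them beyond the spread between mice. *Clk4* (ENSMUSG00000020385, chromosome 11, plus strand, 51261730 to 51281766), the closest relative of *Clk1*, measured 48.2, 48.0, 52.2 and 47.6 CPM in homecage replicates 1 to 4 and 48.2, 55.1, 48.4 and 51.3 CPM in SOR replicates 1 to 4. Its groups overlapped nearly throughout, with a log2 fold change of 0.05 (SE 0.0544, adjusted p = 0.813) and a limma-voom interval of -0.08 to 0.17. *Clk2* (ENSMUSG00000068917, chromosome 3, plus strand, 89164795 to 89176921) measured 17.5, 16.6, 17.3 and 18.8 CPM in homecage replicates 1 to 4 and 18.4, 18.1, 19.3 and 18.4 CPM in SOR replicates 1 to 4. Only homecage replicate 4 lay within the SOR range, and the log2 fold change was 0.08 (SE 0.0617, adjusted p = 0.726), with an interval of -0.06 to 0.21. *Clk3* (ENSMUSG00000032316, chromosome 9, minus strand, 57750624 to 57765860) measured 57.7, 48.3, 48.1 and 45.7 CPM in homecage replicates 1 to 4 and 53.8, 55.3, 52.3 and 45.6 CPM in SOR replicates 1 to 4. Both the highest and the next-to-lowest of these values came from homecage mice, and the log2 fold change was 0.05 (SE 0.0806, adjusted p = 0.877), with an interval of -0.12 to 0.24. For *Clk2*, *Clk3* and *Clk4* an increase as large as that estimated for *Clk1* (0.22) lies outside the interval of *Clk4*, just outside that of *Clk2* and inside that of *Clk3*. Without SOR replicate 1 their log2 fold changes were 0.08, 0.03 and 0.07.

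Levels were compared between genes only per kilobase of annotated exon. In homecage mice *Rbm3* had the highest mean at 15.7 ± 1.31 CPM per kb, followed by *Clk1* at 14.2 ± 0.128, *Cirbp* at 11.3 ± 0.682, *Clk4* at 8.45 ± 0.369, *Clk3* at 5.91 ± 0.626 and *Clk2* at 3.31 ± 0.178 CPM per kb (SD, n = 4 each). The ranges of *Rbm3* (13.7 to 16.5 CPM per kb) and *Clk1* (14.1 to 14.4 CPM per kb) overlapped in these mice, and no other neighbours in this order did. In SOR mice *Clk1* (15.6 to 17.3 CPM per kb) lay wholly above *Rbm3* (9.28 to 15.0 CPM per kb), and *Cirbp* (5.93 to 9.43 CPM per kb) overlapped *Clk4* (8.32 to 9.51 CPM per kb), *Clk3* (5.39 to 6.55 CPM per kb) and the low end of *Rbm3*, which also overlapped *Clk4*. The exon length is the union over all annotated transcripts and overstates the length of any single one, so the order depends on the annotation.

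Ratios of 2 genes within a library need no scaling between libraries, and they were added after the values had been seen. The ratio of *Cirbp* to *Rbm3* counts was 0.413, 0.391, 0.422 and 0.378 in homecage replicates 1 to 4 and 0.354, 0.348, 0.376 and 0.335 in SOR replicates 1 to 4. The groups did not overlap, and SOR replicate 1, far below the others for each gene alone, was inside the range of the other SOR mice for their ratio. The mean went from 0.401 ± 0.0203 to 0.353 ± 0.017, a log2 difference of -0.18 with and without SOR replicate 1. The ratio of *Clk1* to *Clk4* was 2.38, 2.43, 2.21 and 2.45 in homecage replicates 1 to 4 and 2.64, 2.56, 2.67 and 2.75 in SOR replicates 1 to 4. Here too every SOR mouse was above every homecage mouse, with means of 2.37 ± 0.109 and 2.65 ± 0.0782 and a log2 difference of 0.16. Of the 15 ratios among the 6 genes, 7 did not overlap between the groups, with or without SOR replicate 1. These were *Cirbp* to each of the other 5 genes, *Rbm3* to *Clk1* and *Clk1* to *Clk4*, so that each held *Cirbp* or *Clk1*, the genes whose own values did not overlap. Over all pairs of the tested genes above 0 in each library, 5.87% of ratios did not overlap, and 9.22% without SOR replicate 1. Each had an exact permutation p of 0.0286 with all mice, which is 0.0613 after adjustment over the 15 ratios, and the lowest adjusted p without SOR replicate 1 was 0.107. *Cirbp* to *Clk1* differed the most, from 0.254 ± 0.0161 to 0.16 ± 0.0267 (log2 difference -0.68, and -0.55 without SOR replicate 1). As *Cirbp* lay wholly lower and *Clk1* wholly higher in SOR mice, this ratio could not overlap, and its p is no further support.

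**Figure D3:**
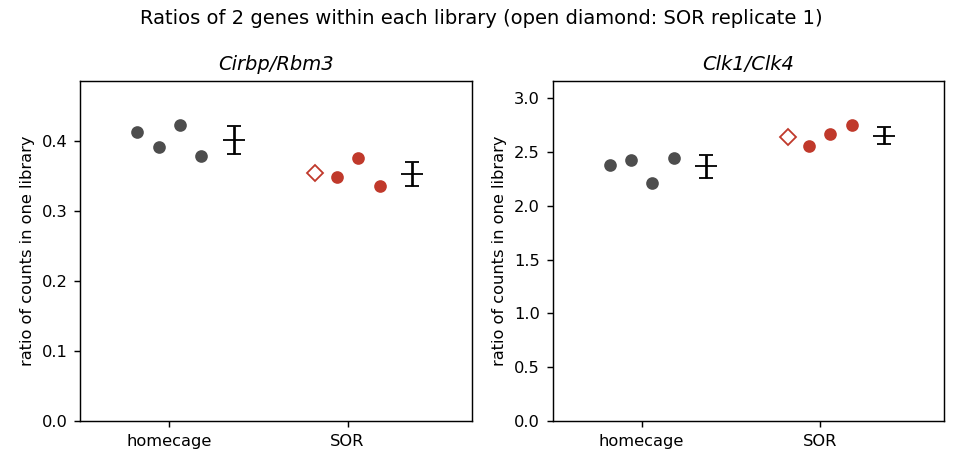
Ratio of counts of 2 genes within each library (y axis) for homecage and SOR mice (x axis), with mean and SD beside the points and SOR replicate 1 as an open diamond. SOR mice lie below homecage mice for *Cirbp* to *Rbm3* (0.376 or less against 0.378 or more) and above them for *Clk1* to *Clk4* (2.56 or more against 2.45 or less).

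Across the 8 mice, *Cirbp* and *Rbm3* varied together more closely than any other pair of the 6 genes. Pearson's r of their log2 CPM was 0.94 (permutation p = 0.00491, adjusted p = 0.0516 over 21 relations) and Spearman's rho was 0.81 (permutation p = 0.0218, adjusted p = 0.386). Without the 2 mice farthest from the median of *Cirbp*, homecage replicate 1 and SOR replicate 1, r was 0.69, and without SOR replicate 1 alone it was 0.73. As deviations from the group means r was 0.96, and 0.75 without SOR replicate 1. *Cirbp* and *Clk1* had an r of -0.51 (permutation p = 0.183) and a rho of -0.76 (permutation p = 0.0368, adjusted p = 0.386). Without SOR replicate 1 their r was -0.86, larger in size than the 0.73 of *Cirbp* and *Rbm3*. Without homecage replicate 1 and SOR replicate 1 it was -0.85, so which pair was closest depended on SOR replicate 1. As deviations from the group means r was 0.66 for this pair, and these deviations gave 0.13 without SOR replicate 1. The negative sign thus rested on the difference between groups, and the size of the positive value on that library. *Clk1* and *Clk4* had an r of 0.59 (permutation p = 0.142) and a rho of 0.45 (permutation p = 0.267), and r was -0.24 without SOR replicates 2 and 4, the mice farthest from the median of *Clk1*. None of the 21 relations passed the adjustment. The 8 points share group and library, so that these coefficients describe the mice measured.

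Genes that act on the warm side of the temperature response were examined as a list of 20 heat shock factors and chaperones. It was chosen with earlier results of these data known. In edgeR's quasi-likelihood test 1 rose and 0 fell at an adjusted p under 0.05, where 68 of all genes passed. DESeq2 called 6 (435 of all genes), the likelihood ratio test 4 (214 of all genes) and limma-voom 0 (63 of all genes). An unadjusted p under 0.05 was reached by 12, against 10.1% of all genes. Of the 20, 19 had a positive log2 fold change, against 43.8% of all genes. The median log2 fold change was 0.24 against -0.02 for all genes tested. The gene that rose was *Dnajb1*, a cochaperone of HSP70, from 23.8 ± 2.02 to 40.7 ± 9.17 CPM (log2 fold change 0.77, SE 0.133, adjusted p = 0.0445). SOR replicate 1 was the highest of the 8 libraries for 19 of the 20 genes, where it was the highest for 15.1% of all genes. The inducible chaperone *Hspa1a* measured 16.6, 13.6, 12.3 and 12.1 CPM in homecage replicates 1 to 4 and 50.8, 22.7, 27.1 and 23.9 CPM in SOR replicates 1 to 4, with a log2 fold change of 1.19 (SE 0.237, adjusted p = 0.0834). All SOR mice were above the homecage mice, and without SOR replicate 1 the gene passed (log2 fold change 0.85, adjusted p = 0.0163). *Hspa8*, the constitutive HSC70 and the most abundant of the list, went from a mean of 2580 ± 70.3 to 3030 ± 351 CPM (adjusted p = 0.311), with 3550 CPM in SOR replicate 1. Its log2 fold change was 0.23, and 0.14 without that library. Without that library the median of the list was 0.12, and 3 genes passed, *Hspa1a*, *Hspa1b* and *Dnajb1*. Leaving out any other single mouse ended the call of *Dnajb1* (adjusted p up to 0.177).

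The mean log2 CPM of the heat shock list was 6.19 to 6.28 in homecage mice, 6.42 to 6.47 in SOR replicates 2 to 4 and 6.94 in SOR replicate 1. The mouse with the highest heat shock level was thus the one with the lowest *Cirbp* and *Rbm3*. Pearson's r with this mean was -0.96 for *Cirbp* (permutation p = 0.00367, adjusted p = 0.0516, rho -0.67) and -0.89 for *Rbm3* (permutation p = 0.019, adjusted p = 0.133, rho -0.52). Without homecage replicate 3 and SOR replicate 1, the mice farthest from the median, r was -0.92 for *Cirbp* and -0.87 for *Rbm3*, and without SOR replicate 1 alone it was -0.82 and -0.43. As deviations from the group means r was -0.90 for *Cirbp*, but it was 0.85 without SOR replicate 1, so that the negative relation within groups rested on this library. For *Rbm3* the same values were -0.86 and 0.41. Choroid plexus markers were highest in the same library, and their part in this relation was not tested.

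**Figure D4:**
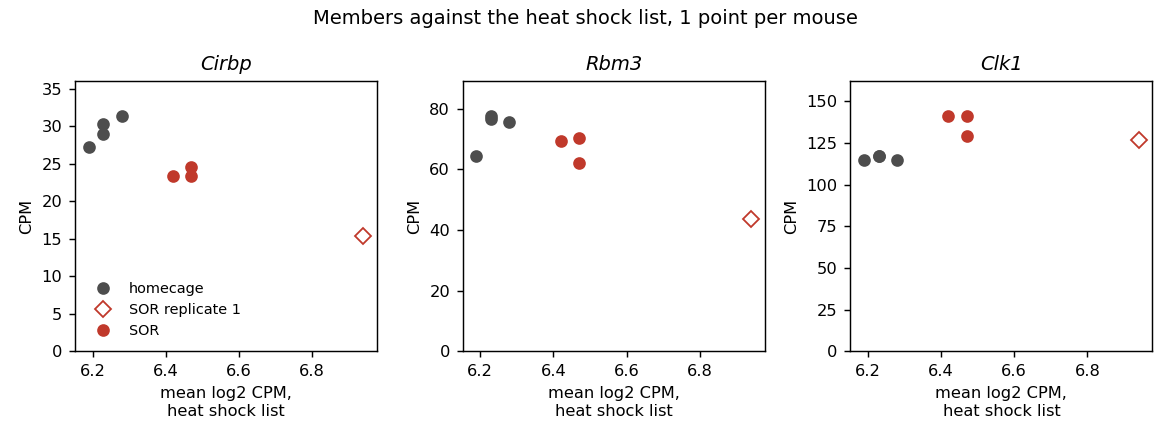
CPM of *Cirbp*, *Rbm3* and *Clk1* (y axis) against the mean log2 CPM of the 20 genes of the heat shock list (x axis), with 1 point per mouse, homecage in grey, SOR in red and SOR replicate 1 as an open diamond. SOR replicate 1 lies alone at 6.94 on the x axis, and the homecage mice lie between 6.19 and 6.28.

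The substrates and relatives of the kinases were examined next. Among 22 SR proteins and SR-related splicing factors, 1 rose and 0 fell in edgeR's quasi-likelihood test, where 68 of all genes passed. In DESeq2 1 passed (435 of all genes), and 4 had an unadjusted p under 0.05 (10.1% of all genes). The median log2 fold change was -0.03. *Tra2a*, which encodes a splicing activator that binds purine-rich exon sequences, rose from 64.0 ± 3.33 to 77.8 ± 1.81 CPM (log2 fold change 0.28, SE 0.0444, adjusted p = 0.03). Its fold change was as large without SOR replicate 1, but the adjusted p was then 0.0628. Leaving out homecage replicate 1 kept the call (adjusted p = 0.0201), and leaving out any other mouse ended it, with an adjusted p of at most 0.142. *Srsf5*, an SR protein, measured 271, 259, 271 and 267 CPM in homecage replicates 1 to 4 and 185, 245, 241 and 224 CPM in SOR replicates 1 to 4. Its SOR values all lay below those of homecage mice and were lowest in SOR replicate 1, with a log2 fold change of -0.25 (adjusted p = 0.279). Without that library the log2 fold change of *Srsf5* was -0.17 (adjusted p = 0.189). *Son*, the most abundant gene of this list, averaged 433 CPM without and 427 CPM with training (adjusted p = 0.92). Of 15 other kinases of SR proteins and their relatives that could be tested, 0 passed in edgeR's quasi-likelihood test and 1 passed in DESeq2 (435 of all genes). An unadjusted p under 0.05 was found for 4 (10.1% of all genes), and the median log2 fold change of these kinases was 0.08. *Srpk1*, a mainly cytoplasmic kinase of SR proteins, went from 55.0 ± 2.7 to 60.5 ± 1.28 CPM (log2 fold change 0.14, adjusted p = 0.32). *Hipk1*, a nuclear relative, went from 136 ± 3.25 to 147 ± 2.59 CPM (log2 fold change 0.11, adjusted p = 0.321), and *Srpk2* from 218 to 210 CPM (adjusted p = 0.744).

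Among 7 cold shock domain proteins tested, which share no RNA recognition motif with CIRBP, 0 passed in edgeR or DESeq2. An unadjusted p under 0.05 was found for 1 (10.1% of all genes), and the median log2 fold change was -0.01. The scarce *Ybx2* went from 0.793 to 0.926 CPM (adjusted p = 0.891). Of 14 temperature-sensing ion channels, 11 had enough counts to be tested, and 0 passed in edgeR or DESeq2. An unadjusted p under 0.05 was found for 1 (10.1% of all genes), and the median log2 fold change was -0.06. *Trpm2*, a warmth-activated cation channel, went from 23.5 ± 0.991 to 20.9 ± 0.778 CPM (log2 fold change -0.17, adjusted p = 0.343). *Trpm3*, a heat-activated channel also known from the choroid plexus, had 212 CPM in SOR replicate 1, and its log2 fold change of 0.27 was 0.00 without that library. The potassium channel *Kcnk10* went from 21.6 to 19.7 CPM (adjusted p = 0.653).

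**Figure D5:**
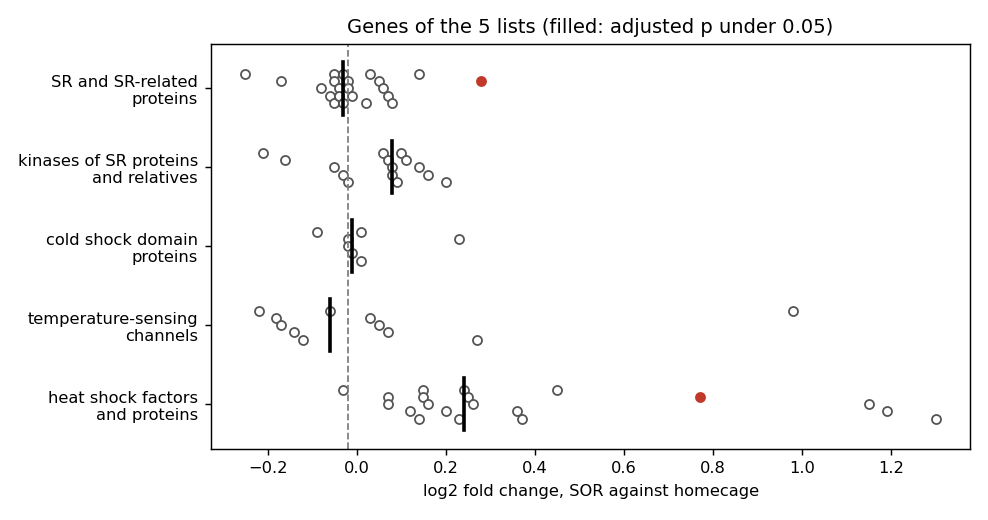
Log2 fold change of SOR against homecage mice (x axis) for each tested gene of the 5 lists (y axis), as filled points where the adjusted p was under 0.05, with a black line at each list's median and a dashed line at the median of all genes (-0.02). Median lines lie between -0.06 and 0.08 for 4 lists and at 0.24 for the heat shock list, and the filled points are *Tra2a* and *Dnajb1*.

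Annotated neighbours were examined because reads of overlapping genes cannot be assigned with certainty where the strand setting of the counting is not known. Of 16 genes that overlapped one of the 6 genes or lay next to it, 12 were tested. In edgeR's quasi-likelihood test 0 passed, 1 passed in DESeq2 (435 of all genes) and 1 had an unadjusted p under 0.05 (10.1% of all genes). *Rbm3os*, an antisense transcript sharing 94 exon bases with *Rbm3*, averaged 0.397 CPM without and 0.365 CPM with training, far below *Rbm3*. *Edc3*, an mRNA decapping factor gene sharing 1284 exon bases with *Clk3* on the other strand, averaged 13.3 ± 1.18 CPM in homecage mice, with a log2 fold change of 0.07 (adjusted p = 0.853), and *Gm25082*, within *Clk4*, had 0.546 and 0.552 CPM. *Midn*, the gene 7616 bases before *Cirbp*, encodes a protein of nuclear protein degradation and had the highest log2 fold change of these genes, 0.56 (adjusted p = 0.129), from 14.7 ± 0.931 to 21.6 ± 4.24 CPM, opposite in sign to *Cirbp*. All its SOR values lay above those of homecage mice. The pseudogene *Rbm3-ps* had 0 counts in every library.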

How the data were processed

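RNA was measured in the dorsal hippocampus of 8 mice, 1 library each. According to the methods this was ribosome-depleted total RNA, and according to the labels polyA RNA. Reads were aligned by the authors to mm10 with STAR within bcbio-nextgen, and the deposited values are estimated counts per gene, summarized with tximport and not normalized. Of these, 52.6% are not whole numbers. The methods name featureCounts, and the quantifier behind the summary is not given in the sources used here. Every row is a gene, and all 8 columns were used. Other assays of the series were not analysed here.

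Symbols and positions came from GENCODE M21 (GRCm38), which holds 54495 of the 54532 genes. Counts were rounded and filtered with filterByExpr, and libraries were scaled by upper-quartile factors. Groups were compared in R 4.3.3 by edgeR 4.0.16 (glmQLFit and glmQLFTest, the quasi-likelihood test), with Benjamini-Hochberg adjustment over 22018 genes and a threshold of 0.05. The F statistic and the fold change gave the standard errors. For the 6 genes there was also an exact two-sided permutation test of log2(CPM + 0.5) over 70 assignments, or 35 without SOR replicate 1. The smallest p is 0.0286 for both. Intervals came from limma 3.58.1 (voom). Replicates differed beyond counting error, with a chi-square per degree of freedom of 11.9 to 54.2. The RUVs correction named in the methods has no stated number of factors, so it was tried as an alternative, in a form written here after its published description. Other alternatives were DESeq2 1.42.0, the likelihood ratio test, other scalings and filters, unrounded counts, a replicate block and each library left out. The quasi-likelihood test, the likelihood ratio test, DESeq2, voom, 1 RUVs factor and the replicate block were checked on simulated data. Other settings, among them 2 and 3 RUVs factors, were not. Samples with the same number correlated between -0.0989 and 0.151 in their deviations, so numbers were not taken to pair mice. Promoters were searched with Python 3.11.15.

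Named genes were the 6 genes, their overlapping or nearest neighbours, the passing genes of each list with its 2 lowest p-values and its most abundant gene, and the 3 genes most correlated with each of the 6. *Rbm3-ps* and *Hspa1b* were named beside them. A gene that this rule names is not reported here. The genes and lists were chosen with earlier results of these data known.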

Additional observations from a re-analysis of the deposited data

Results flagged for a closer look

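The 6 genes, the genes named from the lists and the tested neighbours, 32 in all, were searched, in each group of 4 mice, for a single library whose distance from its nearest neighbour was most of the group's range. In 64 such groups 5 libraries were found, with gaps of 0.844 to 0.872 of the range. At the cut used, chance gives about 1 in 20 groups. In 3 of the 5 the library was SOR replicate 1. It had 15.4 CPM of *Cirbp*, where the other SOR mice had 23.3 to 24.6 CPM. It also had 50.8 CPM of *Hspa1a*, where the others had 22.7 to 27.1 CPM, and 3550 CPM of *Hspa8*, where the others had 2800 to 2890 CPM. The other 2 were in homecage replicate 3, with 64.4 CPM of *Rbm3* against 75.7 to 77.5 CPM in the other homecage mice, and with 52.2 CPM of *Clk4* against 47.6 to 48.2 CPM.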

How the results depend on the processing

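The direction of each of the 6 fold changes held in all 13 alternatives with all mice and in all 8 fits that left out 1 mouse. Side of the threshold did not always hold, and the cause was not tested. The number of the 6 genes that passed was 0 as reported, 1 with TMM, RLE, the likelihood ratio test and 3 RUVs factors, and 2 with DESeq2 and 2 RUVs factors. *Cirbp* passed with DESeq2 (log2 fold change -0.43, adjusted p = 0.0297) and with 2 and 3 RUVs factors (-0.42 in both, adjusted p = 0.0213 and 0.0169), over a range of adjusted p from 0.0169 to 0.373. *Clk1* passed with TMM and RLE (0.24 in both), with the likelihood ratio test and 2 RUVs factors (0.22 in both) and with DESeq2 (0.24, adjusted p = 0.000119), over a range from 0.000119 to 0.182. Leaving out 1 mouse gave log2 fold changes of -0.51 to -0.31 for *Cirbp* and 0.19 to 0.24 for *Clk1*, with 0 of the 6 passing each time. Without SOR replicate 1, 1 of the 6 passed with TMM and 2 with DESeq2. The number of all genes passing in these reduced fits is not given here, so these counts have no background.

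Of all genes, 68 passed as reported, 83 with TMM, 81 with RLE, 214 with the likelihood ratio test and 435 with DESeq2. With 2 RUVs factors 124 passed, and with 3 RUVs factors 97. A fold change above 1.4 as well was met by 38, and 30 to 55 passed with 1 mouse left out. Of the genes of the 5 lists, 2 passed as reported, 1 with library size scaling and limma-voom, 5 with the likelihood ratio test, 8 with DESeq2, 9 with 2 and 7 with 3 RUVs factors, and 0 to 3 with 1 mouse left out. With the replicate block 40 genes passed and *Tra2a* did not (adjusted p = 0.119), but of 4 same-numbered pairs 1 correlated above 0.1, and 1 of 4 SOR mice correlated best with its own number. With TMM, 3 near-zero correlations changed sign, to -0.10 for *Rbm3* and *Clk4*, 0.09 for *Clk2* and *Clk3*, and 0.15 for *Clk4* and the heat shock list. The 6 genes had 935 to 9458 counts per library, and 4 mice per group limit the comparison.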

Other observations

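For each of the 6 genes, the genes whose log2 CPM followed it most closely over the 8 mice were sought among 16351 other genes that averaged at least 1 CPM. The highest Pearson coefficients are a description, since so many genes were compared over so few mice that share library and group. For *Cirbp* they were *Erich3* (0.993), *Minar2* (0.977) and *Ddhd1* (0.977), and for *Rbm3* *Npnt* (0.969), *Tvp23a* (0.968) and *Nap1l3* (0.968). For *Clk1* they were *Gm37048* (0.988), *Polr3e* (0.976) and *Fastkd5* (0.959). *Clk4* was followed by *Doc2b* (0.983), *Kirrel2* (0.981) and *9330159M07Rik* (0.96), *Clk2* by *Leng1* (0.955), *Eaf1* (0.954) and *Trak1* (0.94), and *Clk3* by *Gm30738* (0.987), *Edem3* (0.956) and *Drc3* (0.951). Over the 7 mice without SOR replicate 1, none of the genes named for *Cirbp*, *Rbm3* or *Clk3* was again among the closest 3. The closest were then *Rab33a* (0.985) for *Cirbp*, *Washc3* (0.988) for *Rbm3* and *Olfr1459* (0.993) for *Clk3*. *Gm37048* and *Fastkd5* stayed among the closest for *Clk1*, *Leng1* and *Eaf1* for *Clk2*, and *Doc2b* and *Kirrel2* for *Clk4*.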
